A study of Mus musculus with 6 samples.

Results

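The 42 genes described here encode the laminin chains, the integrin chains and the proteins that link them in the basement membrane of the skin. They were taken by name from the 23934 genes of the table as the protein-coding genes whose symbols are those of a laminin chain (11 genes), an integrin chain (17 alpha and 8 beta), nidogen (Nid1, Nid2), perlecan (Hspg2), agrin (Agrn), dystroglycan (Dag1) or fibronectin (Fn1). RNA was sequenced from sorted tdTomato-positive mouse skin cells at day 50, with 3 libraries of Zfp750 knockout mice (S5, S6 and S7) and 3 of control mice (S2, S3 and S4). Zfp750 encodes a transcription factor known for its role in keratinocyte differentiation. The knockout samples are labelled ZNF750 fl/fl and Rosa26 -/-, with Lrig1-CreER +/- in 1 and Lrig1-CreERT2 +/- in 2, and Lrig1 is a gene of the upper hair follicle epithelium. Of the controls, 1 is ZNF750 wt/fl, Rosa26 -/-, Lrig1-CreER +/-, another is ZNF750 wt/fl, Rosa26 -/-, Lrig1-CreERT2 +/-, and the last is ZNF750 wt/wt, Rosa26 +/-, Lrig1-CreERT2 +/-. Thus the recombinase was present in both groups, and all samples were given 4-hydroxytamoxifen on days 4 to 7 or 5 to 8 of age. Column names give each library's group but not which genotype it carried, and the labels do not show how cells labelled Rosa26 -/- came to be tdTomato-positive.

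A laminin is a cross-shaped trimer of an alpha, a beta and a gamma chain, and laminin networks are tied to the collagen IV network by nidogens and perlecan. Integrins are alpha-beta heterodimers through which cells hold on to laminins, collagens and fibronectin. In skin, a laminin with the Lama3 and Lamb3 chains and the integrin of the Itga6 and Itgb4 chains anchor basal keratinocytes to the dermis, while other laminins surround vessels, nerves, muscle and hair follicles.

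Depth was 16940675 to 20222393 estimated reads in the knockout libraries and 15310214 to 20705403 in the control libraries, and 3 reads, the limit for a gene with no read, correspond to 2.39 to 3.81 normalized counts (reads divided by a size factor for each library). Zfp750 itself had normalized counts of 4.90, 1.82 and 7.16 in the knockout libraries (5, 2 and 9 estimated reads) and 41.9, 3.75 and 314 in control S2, S3 and S4, so this gene does not check the label of control S3, whose value is like those of the knockouts. Krt5, a keratin of basal keratinocytes, had 1164, 885 and 8559 in the knockout libraries and 2503, 62.5 and 11805 in the controls. The 7 fibroblast markers summed to 917792 to 1208780 in the knockout libraries and 2983870 to 8914250 in the controls, mostly collagen transcripts. Sums of the 6 basal keratinocyte markers were 8921 to 27567 in the knockout libraries and 5447 to 31471 in the controls. In every library the keratinocyte sum was far below the fibroblast sum, so much RNA came from dermal cells and little was of these keratinocyte markers. In such bulk samples, fewer cells of a type and less RNA per cell cannot be told apart. Of 15 marker lists, 6 had summed levels that did not overlap between the groups. Those of pericytes and smooth muscle, mast cells, neutrophils, platelets and adipocytes were higher in the knockout, and that of fibroblasts was lower. Of the neutrophil, platelet and adipocyte markers, 1 of 4, 1 of 4 and 2 of 4 passed the filter on low values described below.

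Of the 42 genes, 41 passed the filter on low values and were tested, Lama1 being the exception. In the knockout 4 rose, the laminin gamma 3 chain gene Lamc3 and the integrin genes Itga11, Itga1 and Itga5, and 1 fell, the integrin gene Itga2 (limma, p adjusted over all genes tested and under 0.05). Log2 fold changes are knockout over control, on the scale of log2(normalized count + 9.145), and are given with their standard errors after ±. These are 12.2% of the members tested, where 6.71% of all 15935 genes tested were called. By direction, 4.12% of all genes rose and 2.59% fell. The groups did not overlap for 13 of the 41, 9 higher and 4 lower in the knockout, which is 31.7%, beside 28.8% of all genes tested. The median log2 fold change was 0.31 over the members and 0.01 over all genes tested, and 14 of 41 members had an unadjusted p under 0.05, as had 3697 of all 15935 genes, the background for each such count given here. With all libraries rescaled to a common total the median of all genes moved by 0.30 and the same 5 members were called together with Itgb1, so each change is relative to the authors' scaling. That rescaling called 1340 genes, of which 78.9% were higher in the knockout, against 61.4% as deposited.

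**Figure D1:**
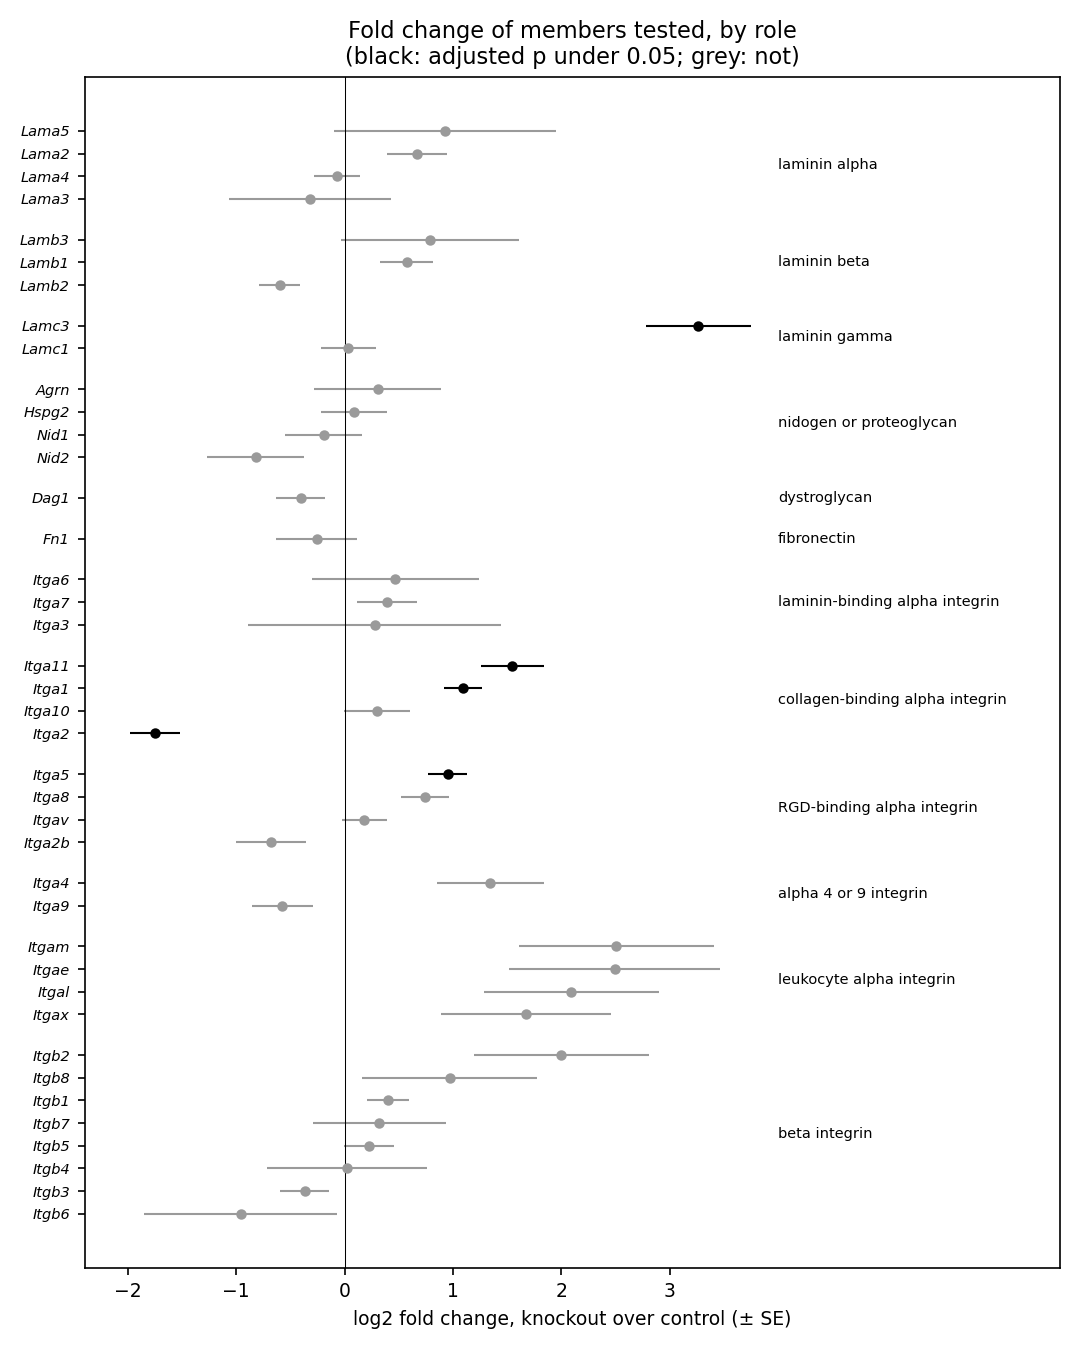
Log2 fold changes (knockout over control, on the log2(value + pseudocount) scale) of tested members, grouped by role, with bars of 1 standard error; black points are the 5 members with an adjusted p under 0.05, grey points the others, and the vertical line marks 0. Lamc3 lies at 3.26 and Itga2 at -1.75, and the leukocyte integrins have positive values with wide bars.

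RefSeq promoter sequences (250 bases before to 50 after the start, build GRCm38.p6) were found for 27 of the 42 members, and are given here for the called integrin genes because 3 of these encode collagen-binding alpha chains that moved in opposite directions. Capitals mark each match to the GC box on either strand.

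Itga11 promoter, chr9:62677605-62677904, plus strand: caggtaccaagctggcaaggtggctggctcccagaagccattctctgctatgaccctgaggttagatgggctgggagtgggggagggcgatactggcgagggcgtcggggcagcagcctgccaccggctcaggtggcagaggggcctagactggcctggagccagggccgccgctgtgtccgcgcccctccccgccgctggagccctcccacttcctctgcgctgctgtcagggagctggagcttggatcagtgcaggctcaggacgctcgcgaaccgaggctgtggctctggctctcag
Itga1 promoter, chr13:115101915-115102214, minus strand: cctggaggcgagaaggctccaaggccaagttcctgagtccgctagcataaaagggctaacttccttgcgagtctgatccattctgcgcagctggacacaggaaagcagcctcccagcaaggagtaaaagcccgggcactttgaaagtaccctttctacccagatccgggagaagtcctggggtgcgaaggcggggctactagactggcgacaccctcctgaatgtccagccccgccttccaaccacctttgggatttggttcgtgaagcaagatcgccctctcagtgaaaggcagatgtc
Itga5 promoter, chr15:103366742-103367041, minus strand: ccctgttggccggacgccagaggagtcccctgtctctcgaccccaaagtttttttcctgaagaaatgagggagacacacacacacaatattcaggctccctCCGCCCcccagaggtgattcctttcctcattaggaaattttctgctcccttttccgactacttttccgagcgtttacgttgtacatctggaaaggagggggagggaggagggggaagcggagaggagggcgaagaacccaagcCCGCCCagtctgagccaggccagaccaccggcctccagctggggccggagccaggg
Itga2 promoter, chr13:114932051-114932350, minus strand: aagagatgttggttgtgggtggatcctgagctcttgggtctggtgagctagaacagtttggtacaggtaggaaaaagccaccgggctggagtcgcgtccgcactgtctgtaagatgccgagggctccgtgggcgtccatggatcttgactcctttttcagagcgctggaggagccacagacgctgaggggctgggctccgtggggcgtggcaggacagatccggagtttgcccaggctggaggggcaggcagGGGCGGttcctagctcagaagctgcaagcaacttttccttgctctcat

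The GC content of these promoters was 68.0% for Itga11, 56.7% for Itga1, 58.7% for Itga5 and 59.3% for Itga2, beside a median of 52.7% over 32851 promoters. Both strands were searched for AP-1 (TGANTCA), TEAD (GGAATG), RUNX (TGTGGT), the GC box (GGGCGG) and the TATA box (TATAAA), which occur in 7.81%, 14.7%, 16.8%, 35.7% and 13.6% of all promoters. The GC box had 1 match in the promoter of Itga2, 3 bases after the start, and 2 in that of Itga5, at positions -149 and -6 relative to the start. The other letters searched are not in these windows, and no match of any kind was found for Itga11 or Itga1. No matches overlapped.

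Among the laminins, the change past the threshold was that of Lamc3 (ENSMUSG00000026840, chromosome 2, 31777303 to 31836552 on the plus strand in the table's own coordinates, of a build not given in the sources here). It encodes a gamma chain known from vessels, nerves and parts of the skin basement membrane. Lamc3 had normalized counts of 7262, 11884 and 6835 in knockout S5, S6 and S7, against 1755, 421 and 873 in control S2, S3 and S4. Every knockout library exceeded every control by a wide margin, and knockout S6 was the highest. The means were 8660 ± 2799 in knockouts and 1016 ± 678 in controls (SD, n = 3 per group), a linear ratio of 8.52, with a log2 fold change of 3.26 ± 0.48 (SE; limma adjusted p = 0.0103). Without knockout S6 the adjusted p was 0.0574, and the call held without any other single library.

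Lamc1, the gamma chain of most laminins, had 24428, 15181 and 20370 in the knockout libraries, against 18406, 18653 and 20486 in the controls, and the groups overlapped (log2 fold change 0.03, adjusted p = 0.952). Per exonic kilobase, Lamc3 made up 28.8%, 51.5% and 31.3% of the transcripts of Lamc1 and Lamc3 together in the knockout libraries, against 11.5%, 2.97% and 5.47% in the controls. Its share averaged 37.2% ± 12.5 in knockouts and 6.64% ± 4.36 in controls (SD, n = 3 each; p = 0.1 by an exact permutation test, the smallest that 3 against 3 libraries can give, adjusted 0.27 over 27 ratios). By level per kilobase, Lamc3 was the 7th of the 42 genes in the knockout group and the 19th in the control group.

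Of the laminin beta chains, 0 of 3 passed limma's threshold at an adjusted p, while 2 had an unadjusted p under 0.05. Lamb1, common in vessel and embryonic laminins, had 12928, 9137 and 9446 normalized counts in the knockout libraries, against 5885, 6340 and 9097 in the controls. The groups did not overlap, though knockout S6 and control S4 were nearly level (0.57 ± 0.24, adjusted p = 0.214). Lamb2, abundant in laminins of nerve, muscle and vessel, had 8462, 7166 and 8795 in knockouts and 13171, 12704 and 11104 in controls. All 3 knockout values lay below all 3 control values (-0.60 ± 0.19, adjusted p = 0.112). The share of Lamb1 in beta chain transcripts per kilobase was 43.3% ± 4.72 in knockouts and 25.9% ± 6.15 in controls, and that of Lamb2 was 55.1% ± 3.69 in knockouts and 73.3% ± 6.84 in controls (SD, n = 3 each; exact permutation p = 0.1 for both, adjusted 0.27). Lamb3, the beta chain of the epidermal anchoring laminin, had 171, 74.7 and 507 in knockouts and 99.1, 36.2 and 297 in controls, with overlapping groups (0.79, adjusted p = 0.613).

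Of the alpha chains, 0 of 4 tested were called, and 1 had an unadjusted p under 0.05. Lama2, the alpha chain of muscle and nerve laminin, had 24806, 20011 and 17862 normalized counts in the knockout libraries and 15969, 9509 and 14579 in the controls. Its groups did not overlap, and the difference did not pass the test (0.67 ± 0.28, adjusted p = 0.204). Lama4, an alpha chain of vessel laminins, had 8440, 6132 and 6078 in knockouts and 6894, 8324 and 6324 in controls, and the groups overlapped (-0.07, adjusted p = 0.879, and 0.25 with a common total). The share of Lama2 among alpha chains per kilobase averaged 63.2% ± 4.21 in knockouts and 52.2% ± 7.80 in controls (exact permutation p = 0.2, n = 3 each). Lama5, an alpha chain of epithelial and vessel basement membranes, spanned 496 to 2656 in knockouts and 177 to 3175 in controls (0.92, adjusted p = 0.637). Lama1, the main alpha chain of the early embryo, was read 4, 4 and 30 times in the knockout libraries and not at all in the controls, too few reads to pass the filter.

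**Figure D2:**
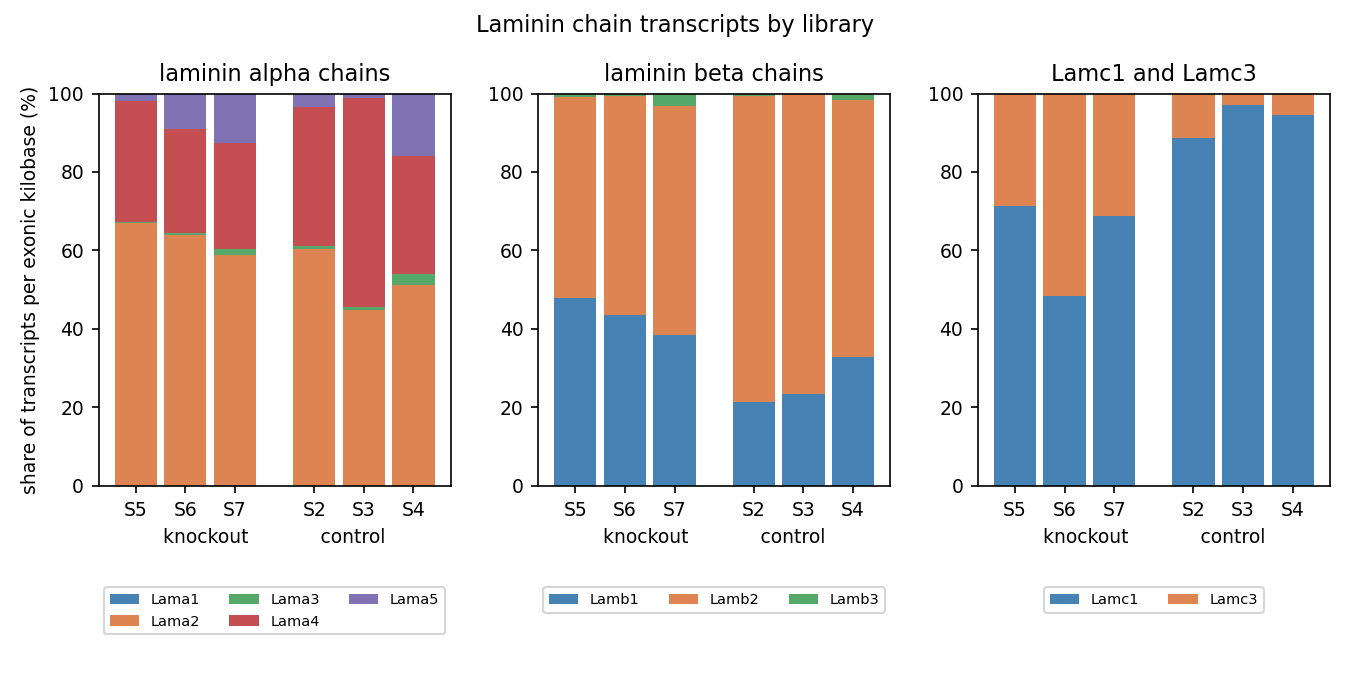
Share (%) of each chain among the laminin alpha chain, laminin beta chain, and Lamc1 and Lamc3 transcripts of each library, from normalized counts per exonic kilobase; knockout libraries stand left of control libraries. Lamc3 takes 28.8% to 51.5% of the last of these in the knockout libraries and 2.97% to 11.5% in the controls, and Lamb1 a larger part of the beta chains in every knockout library than in any control.

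The integrins that bind collagens held 3 of the 5 calls. All pair with the beta 1 chain. Itga11 (ENSMUSG00000032243, chromosome 9, plus strand), a receptor for fibrillar collagen on fibroblasts, had 4559, 5526 and 4248 normalized counts in the knockout libraries, against 1924, 1012 and 2169 in the controls. Knockout values were all above the control values, whose lowest was that of S3. The means were 4778 ± 667 in knockouts and 1702 ± 610 in controls (SD, n = 3 per group), a linear ratio of 2.81 and a log2 fold change of 1.55 ± 0.29 (limma adjusted p = 0.0246). Without S5, S6, S7 or S2 the adjusted p was 0.0543, 0.106, 0.0669 or 0.0757.

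Itga1 (ENSMUSG00000042284, chromosome 13, minus strand), a receptor mainly for basement membrane collagen IV on stromal and muscle cells, had 1402, 1851 and 1885 in the knockout libraries, against 798, 706 and 875 in the controls. The groups were well apart, with means of 1713 ± 269 in knockouts and 793 ± 84.6 in controls (SD, n = 3 per group). The linear ratio was 2.16 and the log2 fold change 1.09 ± 0.17 (limma adjusted p = 0.0133), and without S6, S7 or S2 the adjusted p was 0.0719, 0.0544 or 0.0667. The gene overlaps Pelo and Gm49395 on the same strand, so some of its reads may belong to these. Neither of them was called, and Pelo had 211, 188 and 233 in knockouts and 181, 191 and 165 in controls.

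Itga2 (ENSMUSG00000015533, chromosome 13, minus strand), the collagen receptor of platelets and of the epidermis, was the single member that fell. It had 143, 82.9 and 132 normalized counts in the knockout libraries, against 432, 417 and 392 in the controls. The groups were far apart, with means of 119 ± 32.0 in knockouts and 414 ± 20.3 in controls (SD, n = 3 per group), a linear ratio of 0.289. The log2 fold change was -1.75 ± 0.23 (limma adjusted p = 0.00711), and it passed the threshold in all 6 fits that left out 1 library. Itga2 lies next to Itga1 on the same strand, 20995 bases away in the table's own coordinates, and these neighbours changed in opposite directions. The 4 platelet markers summed to 138 to 213 in knockouts and 63.1 to 117 in controls. Only 1 of these 4 passed the filter on low values (log2 fold change 0.25, not called), and 1 was at 0 in each control. Basal keratinocyte markers, 6 in all, summed to 8921 to 27567 in knockouts and 5447 to 31471 in controls. The 5 suprabasal keratinocyte markers summed to 61.4 to 405 in knockouts and 161 to 1188 in controls, and 1 of them, Krt10, was called lower (-1.77 ± 0.42, adjusted p = 0.0496), a call kept without S5 and lost without any other single library (0.0890 to 0.147). The part of any of these lists in the change of Itga2 was not tested. Itga10, the cartilage collagen receptor, was low at 33.0 to 46.6 in knockouts and 24.2 to 44.9 in controls (0.30, adjusted p = 0.600).

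Relative to Itgb1 per kilobase, Itga2 was at a ratio of 0.00592 ± 0.00132 in knockouts and 0.0274 ± 0.00301 in controls, and Itga11 at 0.334 ± 0.0641 in knockouts and 0.162 ± 0.0759 in controls (SD, n = 3 each; exact permutation p = 0.1 for both, adjusted 0.27). For Itga1 the ratio was 0.0331 ± 0.00665 in knockouts and 0.0204 ± 0.00511 in controls, with overlapping groups (exact permutation p = 0.2, n = 3 each).

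**Figure D3:**
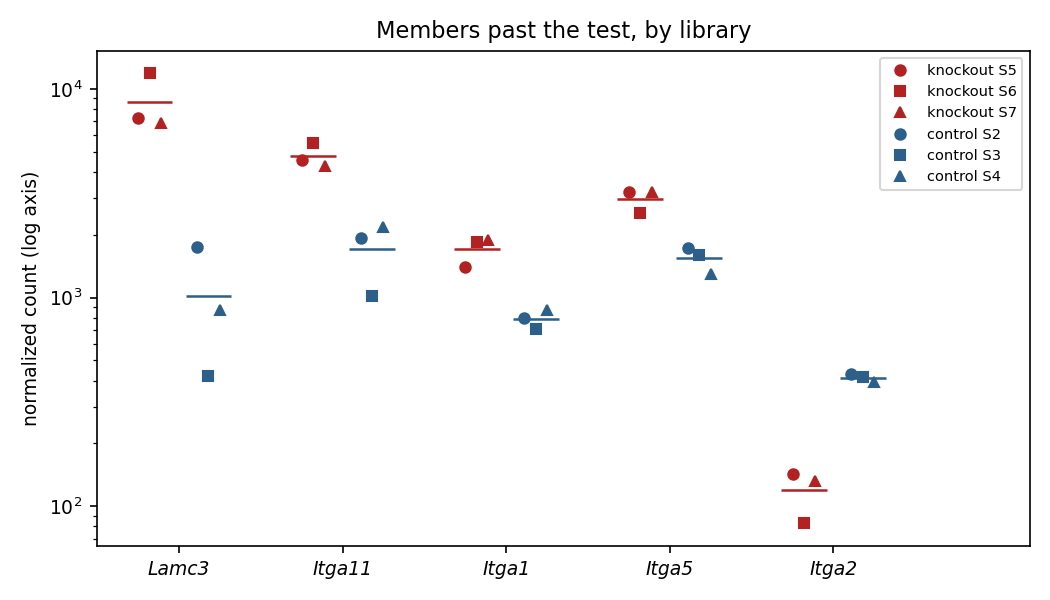
Normalized counts (log axis) of the 5 called members in each library, knockout left of control, with the group mean as a bar. Lamc3, Itga11, Itga1 and Itga5 are higher in every knockout library than in any control, and Itga2 is lower, at 82.9 to 143 in knockouts and 392 to 432 in controls.

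Among the integrins that bind the RGD sequence of fibronectin and related ligands, Itga5 rose and the other 3 did not pass the test. Itga5 (ENSMUSG00000000555, chromosome 15, minus strand), the alpha chain of the main fibronectin receptor, had 3191, 2548 and 3191 normalized counts in the knockout libraries, against 1724, 1603 and 1290 in the controls. The groups did not overlap, with means of 2977 ± 371 in knockouts and 1539 ± 224 in controls (SD, n = 3 per group), a linear ratio of 1.93 and a log2 fold change of 0.95 ± 0.18 (limma adjusted p = 0.0234). This was the least stable of the 5 calls: without S4 the adjusted p was 0.0373, and without S5, S6, S7, S2 or S3 it was 0.0651, 0.0571, 0.0850, 0.0697 or 0.0557. Relative to Itgb1 per kilobase, Itga5 was at 0.215 ± 0.0174 in knockouts and 0.146 ± 0.0132 in controls (exact permutation p = 0.1, n = 3 each).

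Itgav, the partner of several beta chains, had 5608, 4323 and 4522 in the knockout libraries and 3793, 5362 and 3706 in the controls (0.18, adjusted p = 0.653). Itga8, an integrin of mesenchymal cells, had 828, 793 and 599 in knockouts and 574, 362 and 394 in controls, a difference that did not pass the test although the groups did not overlap (0.74 ± 0.22, adjusted p = 0.0989). Itga2b, the platelet integrin chain, had 140, 124 and 130 in knockouts and 201, 353 and 140 in controls, with knockout S5 and control S4 almost equal (-0.68 ± 0.32, adjusted p = 0.258). Fn1, the ligand, was the most abundant of the 42 genes per kilobase in both groups. It had 56479, 44421 and 73991 normalized counts in the knockout libraries, against 57136, 85472 and 65009 in the controls, with overlapping groups and a direction that turned with a common total (-0.26 ± 0.38 as deposited, adjusted p = 0.729, and 0.06 with a common total). Relative to the fibrillar collagen gene Col1a1 per kilobase, Fn1 was at 0.0854 ± 0.0160 in knockouts and 0.0170 ± 0.00772 in controls (SD, n = 3 each; exact permutation p = 0.1, adjusted 0.27). Col1a1 itself had 333927 to 407741 in knockouts and 1430000 to 4570000 in controls.

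Markers of fibroblasts and mural cells did not share 1 direction. Of the 7 fibroblast markers 6 had negative log2 fold changes (median -0.99) and 1 rose, Pdgfra, a growth factor receptor of dermal fibroblasts, with 29489, 23877 and 25506 normalized counts in the knockout libraries and 10932, 11482 and 10886 in the controls (1.24 ± 0.21, adjusted p = 0.0165, and 0.0994 at the highest when 1 library was left out). None of the 7 fell past the threshold in this fit, although their sum was lower in every knockout library. For Col1a1 this depended on the settings (-2.67 ± 1.21, limma adjusted p = 0.237). Its adjusted p was 0.0303 with a common total and 0.0177 with no intensity trend. With 1 library left out it was 0.157 to 0.507. The 7 pericyte and smooth muscle markers summed to 17504 to 21783 in knockouts and 11648 to 14721 in controls, although 4 of the 7 had negative log2 fold changes (median -0.16), with Pdgfrb higher (1.00 ± 0.22, adjusted p = 0.0384, a call lost whichever library was left out) and the muscle filament gene Des lower (-1.20 ± 0.19, adjusted p = 0.0132, 0.0618 at the highest when 1 library was left out and 0.0744 with a common total). None of these 14 markers was at 0 in any library. The 6 endothelial markers summed to 1384 to 4317 in knockouts and 1289 to 2197 in controls, and the 6 Schwann cell markers to 2772 to 5145 in knockouts and 2292 to 4449 in controls, so both overlapped. The part of these cell types in the changes of Lamc3, Itga11, Itga1 and Itga5 was not tested.

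No beta chain was called (0 of 8 by limma, 1 with an unadjusted p under 0.05). Itgb1, the common partner of the collagen, laminin and fibronectin receptors, had 12089, 10769 and 11473 normalized counts in the knockout libraries, against 8881, 9851 and 7423 in the controls. The groups did not overlap (0.40 ± 0.19, adjusted p = 0.266), and with a common total the difference passed the threshold (0.72, adjusted p = 0.0399). Itgb5, a vitronectin receptor chain, had 7356, 6070 and 6126 in knockouts and 4585, 7525 and 4935 in controls (0.23, adjusted p = 0.602). Itgb3, its relative on platelets and vessels, spanned 895 to 1552 in knockouts and 1302 to 1661 in controls (-0.37, adjusted p = 0.371). Itgb8 spanned 144 to 461 in knockouts and 26.2 to 334 in controls (0.97, adjusted p = 0.517).

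The epithelial members did not separate the groups. The laminin-binding chains Itga3, Itga6 and Itga7 and the hemidesmosome chain Itgb4 were all within the spread of the libraries. Itga6 had 261, 378 and 1438 normalized counts in the knockout libraries, against 295, 174 and 1020 in the controls (0.47 ± 0.77, adjusted p = 0.765). Itgb4 had 315, 284 and 1050 in knockouts and 473, 162 and 1146 in controls (0.03 ± 0.74, adjusted p = 0.987, and -0.04 with a common upper quartile). In each group 1 library, knockout S7 and control S4, was well above the others for both genes, and the same libraries were highest for Krt5. Itga3 followed the same pattern, with 132, 185 and 542 in knockouts and 243, 22.5 and 1060 in controls (0.28, adjusted p = 0.914). Itga7, the laminin receptor of muscle, had 207, 252 and 368 in knockouts and 272, 172 and 175 in controls (0.39, adjusted p = 0.445).

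The ratio of Itga6 to Itgb4 per kilobase, the partners of the hemidesmosome integrin, was 0.914 ± 0.233 in knockouts and 0.669 ± 0.174 in controls (exact permutation p = 0.3, n = 3 each). Lama3, the alpha chain of the epidermal anchoring laminin, had 80.4, 91.1 and 349 in knockouts and 123, 81.2 and 510 in controls (-0.32, adjusted p = 0.840). Itgb6, a chain of wounded and follicular epithelium, had 12.7, 14.6 and 27.8 in knockouts and 61.0, 2.50 and 163 in controls (-0.96 ± 0.89, adjusted p = 0.568). Over the set of Lama3, Lamb3, Itga3, Itga6, Itgb4 and Itgb6, 0 of 6 were called and 0 had an unadjusted p under 0.05 (limma), with a median log2 fold change of 0.15.

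The leukocyte integrins had positive log2 fold changes and varied widely by library, and 0 of 6 (Itgal, Itgam, Itgax, Itgae, Itgb2, Itgb7) passed the threshold, though 4 had an unadjusted p under 0.05 (limma). Their median log2 fold change was 2.05. Itgam, a chain of neutrophils and macrophages, had 62.8, 72.0 and 570 normalized counts in the knockout libraries, against 2.54, 16.2 and 52.6 in the controls. The groups did not overlap, but knockout S5 and control S4 were close (2.51 ± 0.90, adjusted p = 0.152). Itgb2, the shared beta chain of leukocyte integrins, had 82.4, 149 and 580 in knockouts and 33.0, 15.0 and 121 in controls (2.00 ± 0.81, adjusted p = 0.192). Itgae, the chain of T cells held in epithelium, had 57.9, 266 and 356 in knockouts and 6.35, 7.49 and 137 in controls (2.49 ± 0.97, adjusted p = 0.181, and 0.0287 without S4).

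Itgal, a chain of lymphocytes, had 47.1, 232 and 418 in knockouts and 19.1, 17.5 and 90.0 in controls (2.09, adjusted p = 0.175). Itgax, a chain of dendritic cells and macrophages, had 53.0, 31.0 and 220 in knockouts and 7.62, 6.25 and 58.9 in controls (1.67, adjusted p = 0.254). Itgb7, the partner of Itgae, had 41.2, 136 and 259 in knockouts and 68.6, 67.5 and 160 in controls (0.32, adjusted p = 0.801). The 4 pan-leukocyte markers summed to 602 to 5198 in the knockout libraries and 91.2 to 1325 in the controls, and none was at 0. The 4 neutrophil markers summed to 51.0 to 581 in knockouts and 0 to 19.3 in controls, where 2, 4 and 2 of them were at 0 in S2, S3 and S4. The 6 T cell markers summed to 79.4 to 890 in knockouts and 41.2 to 289 in controls. The 7 macrophage and dendritic cell markers, which include Itgax, summed to 1131, 859 and 6516 in knockout S5, S6 and S7. In control S2, S3 and S4 they summed to 1169, 1405 and 1837, so knockouts S5 and S6 lay below every control. The 7 mast cell markers summed to 1409 to 4507 in knockouts and 44.5 to 614 in controls, and 3 were called higher. The part of leukocyte number in these values was not tested. Ptprc, the leukocyte surface phosphatase, had 133, 679 and 1158 in knockouts and 36.9, 36.2 and 579 in controls. Per kilobase, Itgb2 was at 2.68 ± 1.23 times Ptprc in knockouts and 3.04 ± 2.12 times in controls (exact permutation p = 1, n = 3 each).

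Of the vascular cell adhesion and tenascin receptors, Itga4 had 128, 407 and 417 normalized counts in the knockout libraries and 86.4, 76.3 and 174 in the controls (1.34 ± 0.49, adjusted p = 0.159, and 0.0379 without S5). Itga9 had 1412, 684 and 733 in knockouts and 1296, 1548 and 1174 in controls, where knockout S5 lay within the control range (-0.57 ± 0.29, adjusted p = 0.279). Relative to Itgb1 per kilobase, Itga9 was below every control in each knockout library, at 0.0432 ± 0.0163 in knockouts and 0.0816 ± 0.00359 in controls (exact permutation p = 0.1, n = 3 each, adjusted 0.27).

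**Figure D4:**
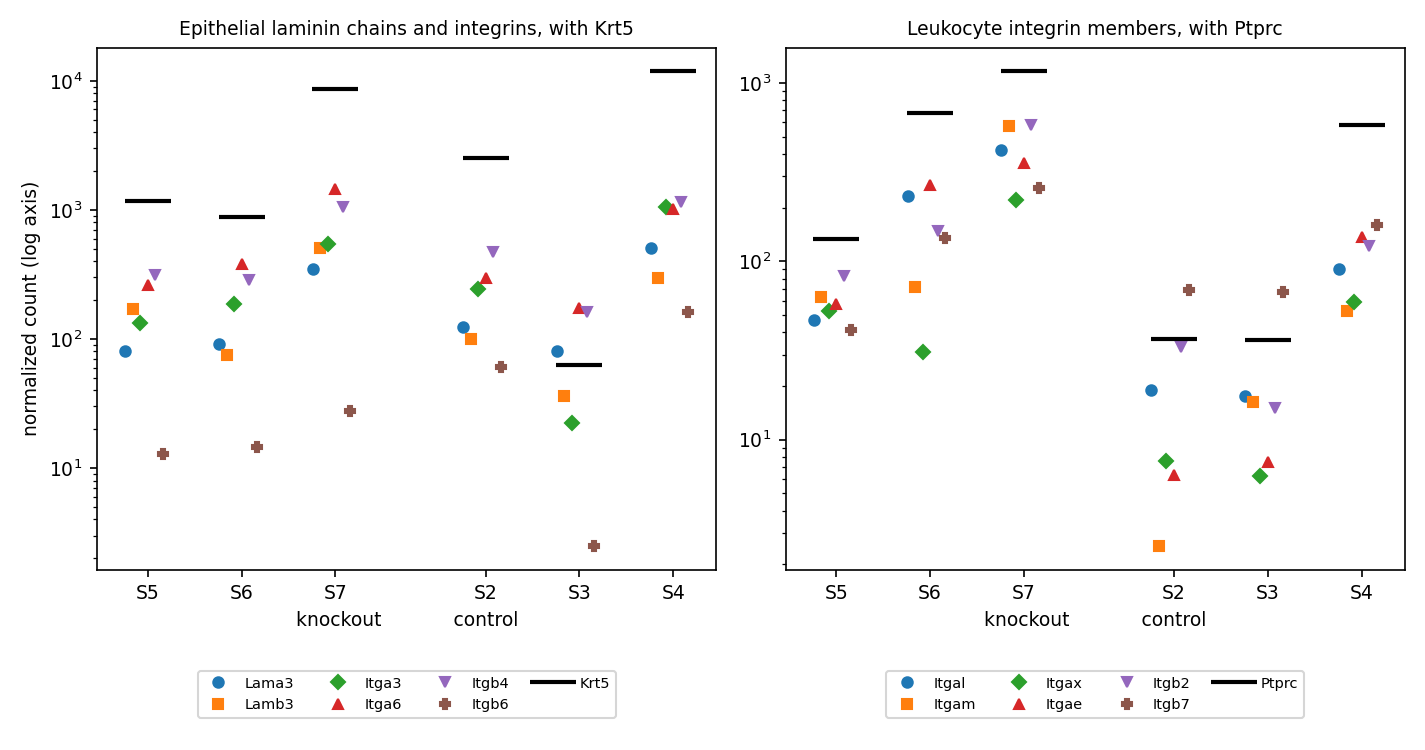
Normalized counts (log axis) of the epithelial members with Krt5 (left) and of the leukocyte integrin members with Ptprc (right) in each library, knockout left of control. Knockout S7 and control S4 are the highest of their groups for all 12 of these genes and for both markers, and control S3 has the lowest Krt5, at 62.5.

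The linkers of the basement membrane did not change past the threshold. Nid1, which joins laminin to collagen IV, had 33772, 20525 and 21436 normalized counts in the knockout libraries, against 29119, 19403 and 39257 in the controls (-0.19, adjusted p = 0.792, and 0.13 with a common total). Hspg2, the large proteoglycan perlecan, had 47636, 35781 and 49454 in knockouts and 36035, 47297 and 41569 in controls (0.08, adjusted p = 0.899). Nid2 spanned 801 to 2103 in knockouts and 1200 to 3023 in controls (-0.82, adjusted p = 0.317). Agrn, which clusters receptors at the muscle synapse, spanned 1441 to 2400 in knockouts and 714 to 3941 in controls (0.31, adjusted p = 0.801). Dag1, the laminin receptor at the centre of the dystroglycan complex, had 8826, 6301 and 8914 in knockouts and 9744, 12553 and 9418 in controls, which did not overlap and did not pass the test (-0.41 ± 0.23, adjusted p = 0.328).

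The level per kilobase gave the same leading genes in both groups. Fn1, Nid1 and Hspg2 were the 3 highest, at group means of 4989, 3636 and 3096 normalized counts per kilobase in knockouts and 5923, 4214 and 2910 in controls. Itgb1 and Lamc1 came next, at 2804 and 2417 in knockouts and 2136 and 2319 in controls. Of the 41 pairs of neighbours in this order, 2 in the knockout group and 3 in the control group had library values that did not overlap, so most neighbours did not differ beyond their spread.

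Lists of genes that work beside these members were counted in the same fit, where 6.71% of all genes were called and the median log2 fold change was 0.01. Of 20 tested other basement membrane proteins 1 rose and 8 fell (45% called), with a median log2 fold change of -0.54. Fras1, which ties epithelium to dermis in the embryo, had 75.5, 40.1 and 46.1 normalized counts in the knockout libraries and 424, 531 and 665 in the controls (-3.14 ± 0.28, adjusted p = 0.00171). The collagen IV chain genes Col4a5 (-2.50 ± 0.26, adjusted p = 0.00299) and Col4a4 (-2.98 ± 0.37, adjusted p = 0.00601) fell likewise, with 86.6 to 167 for Col4a5 in knockouts and 635 to 710 in controls. Col18a1, the basement membrane collagen that gives rise to endostatin, fell by 1.66 (adjusted p = 0.0186), a call lost without S6, S7 or S2 (adjusted p of 0.0883, 0.0618 or 0.0653).

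Of 18 tested other integrin ligands 7 rose and 0 fell (38.9% called), with a median of 1.15. Tnc, tenascin C, a ligand of Itga9 and Itgav integrins, had 57693, 60215 and 49449 in the knockout libraries and 1038, 496 and 3507 in the controls (5.50 ± 0.62, adjusted p = 0.00414). The tenascin gene Tnn (7.70 ± 0.51, adjusted p = 0.000591), Spp1, which encodes osteopontin (5.98 ± 0.31, adjusted p = 0.000239), and Mfge8 (1.58 ± 0.15, adjusted p = 0.00238), an RGD protein that marks dying cells for uptake, rose as well. Of their integrin receptors, Itgav and Itga9 did not pass the test, as given above. Of the other RGD-binding chains, Itga5 was called higher, and Itga8 and Itga2b were not called.

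Of 8 tested hemidesmosome and anchoring partners 1 rose, Col7a1, the collagen of the anchoring fibrils that bind laminin from below, with 5049, 9287 and 8273 in the knockout libraries and 550, 593 and 459 in the controls (3.76 ± 0.25, adjusted p = 0.000578). That is 12.5% of the list, whose median was 0.62. Of 13 tested genes of laminin and fibronectin processing 3 rose and 0 fell (23.1% called, median 0.79): the gelatinase gene Mmp9 (5.68 ± 0.29, adjusted p = 0.000239), the proprotein convertase gene Furin (1.12 ± 0.19, adjusted p = 0.0160, and 0.0769, 0.0641 or 0.0850 without S6, S7 or S2) and the plasminogen activator gene Plat (1.11 ± 0.26, adjusted p = 0.0467, a call kept without S4, where it was 0.0257, and lost without any other single library).

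Of 24 tested adaptors of integrin activation and adhesion 1 rose and 0 fell (4.17% called, beside 6.71% of all genes; median 0.21). This was Tns3, an adaptor that links beta integrin tails to actin, with 4515, 5111 and 4271 in the knockout libraries and 1909, 992 and 1768 in the controls (1.62 ± 0.26, adjusted p = 0.0136, and 0.0735 without S6). Of 20 tested genes of the dystroglycan complex and its glycosylation 0 rose and 2 fell (10% called, median -0.34), the utrophin gene Utrn (-0.71 ± 0.15, adjusted p = 0.0379) and the dystrobrevin gene Dtna (-1.21 ± 0.27, adjusted p = 0.0432), and both lost their calls when any 1 library was left out, with adjusted p-values of 0.0518 to 0.169. With a common total these were 0.276 for Utrn and 0.144 for Dtna.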

How the data were processed

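Libraries of sorted mouse skin cells, 3 Zfp750 knockout and 3 control, were compared. Partek 9.0.20.0202 and TopHat2 2.1.0 are named in the submitters' processing notes, without roles. The build and the use of strand are not given in the sources here. The deposited values, normalized counts per the file headers, behave as a signal made of estimated reads over 1 size factor per library. Of values up to 1000 reads, 78.7% to 81.2% per library were whole within 0.05, so count models were not run. Members and lists were chosen with earlier results of these data known. Group differences were fitted with limma 3.58.1 in R 4.3.3 (trended empirical Bayes, 2-sided) on log2(value + 9.145), for genes at 1 per 1000000 of the library total or more in at least 3 libraries. Benjamini-Hochberg adjustment ran over all genes tested, with a threshold of 0.05, and all adjusted p-values of single genes are from this fit. Fold changes on this scale understate changes of low genes. The fit was also run on simulated reads with the same spread setting for all genes. These held no differences in cell content between libraries, so they did not test the spread seen here. Levels per kilobase used exon lengths of GENCODE M21 by gene ID (23221 of 23934 matched, all 42 members). Ratios and shares were compared by exact 2-sided permutation tests. Named were all members but 1, which is not reported here, and up to 4 called genes of each other list by adjusted p; context genes (Zfp750, Krt5, Ptprc, Col1a1) and the markers Pdgfra, Pdgfrb and Des were named after their values were seen. As labelled, the 3 controls carry 3 different genotypes and so came from different mice, while 2 of the 3 knockouts are labelled alike. The labels do not state that these 2 came from separate mice. The p-values measure only the spread among these samples, which is mixed with genotype in both groups and may in part be technical. Limits by depth cover counting error only.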

Additional observations from a re-analysis of the deposited data

How the results depend on the processing

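The same 5 members were called with a pseudocount of 1, a pseudocount of 36.58, no filter on low values, a common upper quartile and no intensity trend, and a common total added Itgb1. With 1 library left out, the count of members called ranged from 1 to 6 and that of all genes from 270 to 1237: members numbered 1 (Itga2) without S6, 2 (Itga2, Lamc3) without S7 or without S2, 4 without S5 (Itga1, Itga2, Itga4, Lamc3), 4 without S3 (Itga1, Itga11, Itga2, Lamc3) and 6 without S4 (the 5 and Itgae), and all genes numbered 270, 435, 306 and 546 without S6, S7, S2 and S3. The groups were separated in 10 of 27 ratios with all libraries, in 10 to 15 with 1 library left out and in 12 with coding length. For single genes, 28.8% of all tested were separated, and the lowest adjusted p of the 27 ratios was 0.27 (exact permutation). The 10 are not separate results, since the share of Lamc1 is the remainder of that of Lamc3, and Lamb1 and Lamb2 nearly so. The Lama1 share among them rests on a gene with no read in the controls. With fewer libraries, groups separate more readily by chance. Of 517 recomputed member fold changes 27 were reversed, in 14 members, none of them called. With a common total, log2 fold changes were 0.065 for Fn1, 0.25 for Lama4 and 0.13 for Nid1. With a common upper quartile they were -0.035 for Itgb4 and -0.027 for Lamc1. With 1 library left out they ranged from -0.18 to 1.05 for Agrn, -0.016 to 0.23 for Hspg2, -1.07 to 1.47 for Itga3, -0.25 to 1.18 for Itga6, -0.68 to 0.69 for Itgb4, -0.23 to 0.98 for Itgb7, -0.96 to 0.43 for Lama3, -0.22 to 0.043 for Lama4, -0.059 to 1.99 for Lama5, -0.12 to 0.22 for Lamc1 and -0.46 to 0.049 for Nid1. The cause of these turns was not tested.

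The replicate numbers of the labels are not in the column names, so no paired fit by them was possible. A replicate block on another number in the column names, chosen after seeing the data, called 1527 of all genes and 10 members with 1 residual degree of freedom. Knockout S5 and control S4 each had a number of their own and did not inform the group difference in that fit. It rested on S6 against S2 and S7 against S3 only. The 10 were Itga1, Itga11, Itga2, Itga4, Itga9, Itgae, Itgal, Itgam, Lama5 and Lamc3, while Itga5 was not called (adjusted p = 0.0773). It gave -0.029 for Itgav, 0.052 for Itgb6, 0.79 for Lama3 and -0.075 for Lamc1. Deviations of libraries sharing that number correlated at 0.25 (S6 and S2) and -0.22 (S7 and S3). For libraries with unlike numbers the correlations ran from -0.31 (S7 and S2) to 0.41 (S7 and S4). Deviations from a group mean sum to 0 within each group, so these values cannot show whether the number marks a batch or a pair. Count models were not run, since only part of the values came out as whole reads. Lama1, with no read in the controls, was below what this depth can compare.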

Other observations

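The lists of basement membrane proteins and integrin ligands held further called genes, named here after their values were seen. Col4a3, which forms a network with Col4a4 and Col4a5, had 137, 52.0 and 35.0 normalized counts in the knockout libraries, against 516, 227 and 507 in the controls (log2 fold change -2.45 ± 0.50, limma adjusted p = 0.0310), a call kept without S5 or S3 and lost without any of the others (up to 0.132). The basement membrane zone collagen gene Col15a1 (-3.07 ± 0.56, adjusted p = 0.0219), the collagen-binding Sparc (-2.60 ± 0.61, adjusted p = 0.0483) and the netrin gene Ntn4 (-1.34 ± 0.30, adjusted p = 0.0391) were lower in the knockout, and Fbln2 was higher (1.17 ± 0.26, adjusted p = 0.0384). Each of these 4 lost its call without S6, S7, S2 or S3, Sparc and Fbln2 also without S5 (0.0882 and 0.0890), and Ntn4 and Fbln2 also without S4 (0.0687 and 0.0568). With no filter on low values the adjusted p was 0.147 for Sparc and 0.0852 for Fbln2, and with a common total it was 0.107 for Ntn4 and 0.0508 for Col4a3.

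Among the ligands, Tgfb1, whose latent form binds Itgav integrins, had 1725, 1841 and 2045 in the knockout libraries, against 830, 663 and 541 in the controls (1.47 ± 0.19, adjusted p = 0.00623), a call kept in all 6 fits that left out 1 library. The periostin gene Postn (2.67 ± 0.40, adjusted p = 0.0102) and Ccn2 (2.45 ± 0.52, adjusted p = 0.0358) were also higher. Postn lost its call without S6 or S2 (0.0512 and 0.0707), and Ccn2 without S5, S6, S7 or S2 (0.0828 to 0.106).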
